A study of Mus musculus with 20 samples.

Results

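Kupffer cells, the macrophages that reside in the sinusoids of the liver, were followed through 10 marker genes, *Siglec1*, *Marco*, *Clec4f*, *Cd5l*, *Timd4*, *Vsig4*, *Csf1r*, *Cd68*, *Cd163* and *C1qa*. The genes were taken as a list that was chosen with earlier results of these data known. Every probe annotated to them was used, first in liver and then in skeletal muscle as the contrast tissue. The probes carry 16593 gene symbols in all. Of the 10 markers, 8 had a listed probe, 10 probes together, since *Clec4f* and *Cd163* had 2 each. *Csf1r*, the receptor for the macrophage growth factor CSF1, and *Cd68*, a lysosomal glycoprotein of macrophages, had no probe in the annotation used and were not analysed here.

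RNA of liver and gastrocnemius muscle from male mice was measured on 20 Illumina bead arrays, 5 for each genotype and tissue. The groups were wild type mice (WT) and mice with a deletion of 1 of the 2 alleles of *Adck2* (*Adck2*+/-), which encodes a mitochondrial protein of the aarF kinase family. Both groups were on a B6N background. The labels give an age of 3 years for all mice, whereas the methods give 6 months and name another array maker. The mutant mice go back to embryonic stem cell clones that carried the heterozygous deletion in every cell, so the allele was not restricted to macrophages or to liver. *Adck2* itself had 1 probe, which read above background on 3 of 10 liver and 3 of 10 muscle arrays, too few to check the genotypes. Nothing in the labels says more of the arrays than that they are separate samples, so the p-values measure the spread between these samples.

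Kupffer cells clear particles, bacteria, dying cells and aged red cells from the portal blood, and they do so with receptors that form most of the list. *Siglec1* encodes a lectin for sialic acid, *Marco* a scavenger receptor with a collagen-like stalk, *Timd4* a receptor for phosphatidylserine on dying cells, and *Vsig4* a receptor for complement fragments. *Clec4f* encodes a C-type lectin that in rodents marks Kupffer cells, and *Cd163* the receptor that takes up haptoglobin bound to haemoglobin. *C1qa* encodes a chain of complement C1q, and *Cd5l* a secreted protein that binds lipids and keeps macrophages alive. In RNA of whole tissue, fewer cells of a type and less RNA per cell cannot be told apart.

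The 250 bases before the transcription start are shown for *Marco* and *Timd4*, which had the largest mean log2 differences between the genotypes in liver beside *Siglec1*, and for *Vsig4* and *Clec4f*, the markers that were bright in liver and near background in muscle. The sequences are those of RefSeq on GRCm38.p6, at chr1:120505025-120505274 (minus strand, *Marco*), chr11:46810549-46810798 (plus strand, *Timd4*), chrX:96293439-96293688 (minus strand, *Vsig4*) and chr6:83656117-83656366 (minus strand, *Clec4f*). Each runs 5′ to 3′ toward the start, and capitals mark the motifs GAGGAA and GGAAGT on either strand. The stretch of *Timd4* ends past 46810786, where the gene record begins, so its last bases lie inside that record.
Marco: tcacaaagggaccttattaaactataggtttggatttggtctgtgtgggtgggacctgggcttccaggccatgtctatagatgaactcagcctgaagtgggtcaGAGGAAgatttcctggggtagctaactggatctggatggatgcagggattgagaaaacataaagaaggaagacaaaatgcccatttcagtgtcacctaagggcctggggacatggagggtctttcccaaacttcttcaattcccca
Timd4: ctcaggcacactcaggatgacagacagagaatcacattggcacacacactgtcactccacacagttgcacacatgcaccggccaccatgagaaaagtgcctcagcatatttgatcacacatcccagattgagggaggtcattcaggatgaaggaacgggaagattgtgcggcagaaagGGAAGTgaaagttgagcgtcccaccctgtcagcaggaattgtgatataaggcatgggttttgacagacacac
Vsig4: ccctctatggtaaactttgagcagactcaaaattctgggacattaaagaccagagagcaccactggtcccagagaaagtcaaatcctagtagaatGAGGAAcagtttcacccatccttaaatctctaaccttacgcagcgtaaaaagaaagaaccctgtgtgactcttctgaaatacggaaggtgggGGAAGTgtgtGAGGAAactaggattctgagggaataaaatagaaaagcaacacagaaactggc
Clec4f: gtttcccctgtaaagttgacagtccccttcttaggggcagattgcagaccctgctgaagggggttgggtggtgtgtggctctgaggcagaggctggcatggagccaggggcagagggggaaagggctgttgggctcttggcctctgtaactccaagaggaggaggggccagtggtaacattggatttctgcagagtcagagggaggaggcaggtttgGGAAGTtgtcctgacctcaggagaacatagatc
GAGGAA is the PU box, named for PU.1, the macrophage transcription factor that *Spi1* encodes, and GGAAGT holds the core of the ETS factors, to which PU.1 belongs. The motifs share 4 letters and can overlap. A promoter row was found for 7 of the 10 markers. GAGGAA stood in those of *Marco*, *Vsig4*, *Cd5l* and *Cd68*, and in 23.3% of all 32851 promoters of the same length. GGAAGT stood in those of *Timd4*, *Clec4f* and *Vsig4*, and in 19.7% of all. Of the other motifs searched on both strands, TGCTGA, a core of MAF factor sites, stood in those of *Timd4*, *Clec4f* and *Cd5l* (16.1% of all), and the AP-1 site TGAGTCA only in that of *Cd68* (4.46% of all). These matches describe the letters alone.

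Signals were background corrected, quantile normalized and put on the log2 scale within each tissue, and a probe counted as detected on an array at a detection p under 0.05 against negative-control beads. Between 11749 and 12493 probes were detected per liver array and between 11626 and 12604 per muscle array, and the number of arrays limits the precision. In the list of 13 hepatocyte genes, 11 were detected on all 10 liver arrays and 10 lay above every muscle array, while *Fgb* was detected on no array, and 4 were also detected on all 10 muscle arrays. All 14 muscle fibre genes lay above every liver array. In a principal component analysis of the liver arrays, the first component held 45.9% of the variance. WT 3, *Adck2*+/- 1 and *Adck2*+/- 4 scored 28.0 to 30.5 on it and the other 7 arrays at most 5.87. Results that rest on these 3 arrays are given with and without them.

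In liver, 7 of the 8 markers with a probe were detected on at least 5 of the 10 arrays and were kept among 8484 genes. *Cd5l* was detected on 0 of 10 liver arrays, with log2 signals of 4.56 ± 0.07 in WT and 4.63 ± 0.10 in *Adck2*+/- mice (SD, n = 5). The second *Cd163* probe was also at background, on 0 of 10 arrays in each tissue. In muscle, 2 of the 8 were kept among 8424 genes, *Cd163* on 10 of 10 and *C1qa* on 8 of 10 arrays.

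The genotypes were compared within liver first. All 7 kept markers had a lower mean in *Adck2*+/- than in WT liver, with a median log2 difference of -0.31, against 0.01 over all 8484 genes, of which 47.2% lay below 0. Since the markers were chosen with earlier results of these data known, this count is a description and not a test. No marker passed the test at a Benjamini-Hochberg adjusted p under 0.05 in limma, where 0.0118% of all genes did (1 gene). At an unadjusted p under 0.05, *Siglec1* and *Timd4* were lower, and 3.67% of all genes were. Under median scaling in place of quantile normalization the median of all genes moved to 0.16 and *Clec4f* and *C1qa* came to lie above 0, but all 7 markers still lay below the median of all genes, and the median of the markers was -0.13. With array weights 5 of the 7 lay below the median of all genes, and without *Adck2*+/- 5, or without the 3 arrays that stood apart, 6 of the 7 did. The median of the markers was -0.21 without *Adck2*+/- 5 and -0.42 without the 3 arrays.

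*Siglec1* showed the clearest separation. The WT arrays 1 to 5 read 6.50, 6.21, 6.37, 5.97 and 6.30, and the *Adck2*+/- arrays 5.82, 5.78, 5.50, 5.27 and 5.39 on the log2 scale. Every WT value lay above every *Adck2*+/- value, as was so, in the lower direction, for 1.11% of all genes. The mean fell by 0.72 on the log2 scale (SE 0.14, 95% confidence interval -1.03 to -0.40), so that WT was 1.65-fold higher. It ranked 6 of 8484 genes by p, with an adjusted p of 0.341 in limma and an exact two-sided permutation p of 0.00794, the smallest that 5 against 5 arrays allow. The probe was dim, detected on 5 of 5 WT and 3 of 5 *Adck2*+/- arrays, and its signal before any normalization averaged 199 ± 42 and 195 ± 43 (SD, n = 5). Without background correction the difference was -0.21 (adjusted p = 0.437 in limma), and with all 20 arrays normalized and fitted together it was -0.70 and passed (adjusted p = 0.0111). That joint fit takes the same spread for both tissues. *Siglec1* was detected on 0 of 10 muscle arrays, with SDs of 0.07 in WT and 0.03 in *Adck2*+/- muscle against 0.19 and 0.23 in liver. The pass therefore rests in part on values at background.

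*Marco* had the largest mean difference of the markers and the widest spread. The WT arrays 1 to 5 read 9.66, 9.65, 7.26, 9.11 and 6.58, and the *Adck2*+/- arrays 6.67, 7.78, 8.04, 6.60 and 7.32. WT 1, 2 and 4 lay above every *Adck2*+/- array, while WT 3 and WT 5 lay within or below their range. The difference was -1.17 (SE 0.59, interval -2.47 to 0.13, adjusted p = 0.752 in limma), or 2.25-fold higher in WT, and it was within the spread between mice.

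*Timd4* read 8.67, 8.37, 7.95, 8.97 and 8.06 on the WT arrays 1 to 5 and 7.79, 8.38, 7.75, 7.84 and 7.43 on the *Adck2*+/- arrays. Of the *Adck2*+/- arrays, 4 lay below every WT array, and *Adck2*+/- 2 lay among the WT values. The difference was -0.57 (SE 0.22, interval -1.05 to -0.09), with an unadjusted p of 0.0248 and an adjusted p of 0.606 in limma and an exact permutation p of 0.0556.

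**Figure D1:**
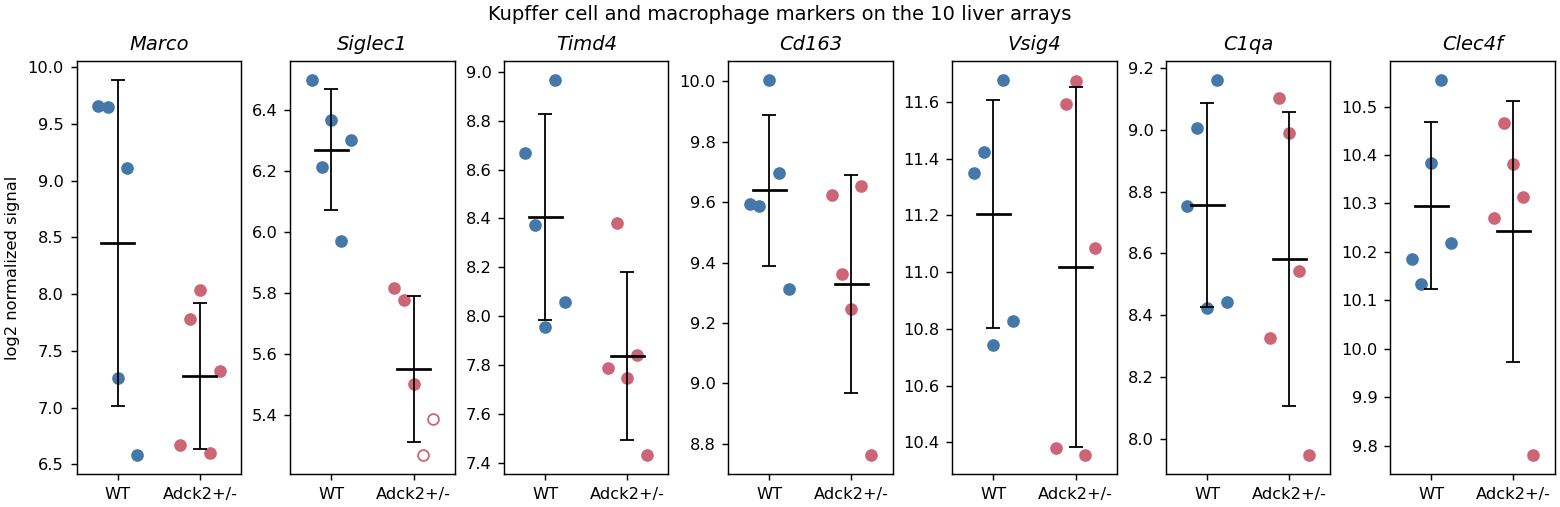
Log2 normalized signal (y axis, its own scale in each panel) of the 7 markers kept in liver, by genotype (x axis); points are single arrays in the order 1 to 5, open points arrays without detection, bars the mean and SD of 5 arrays. The groups are apart for *Siglec1* and overlap for the other 6, and *Marco* spans 6.58 to 9.66 among the WT arrays.

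*Cd163*, the haemoglobin receptor, read 9.59, 9.59, 10.01, 9.70 and 9.31 in WT and 9.62, 9.36, 9.25, 9.65 and 8.76 in *Adck2*+/- liver. The values overlapped, and the difference of -0.31 (SE 0.18, interval -0.71 to 0.10, adjusted p = 0.812 in limma) was within the spread.

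*Vsig4*, the complement receptor, read 11.35, 11.42, 10.74, 11.68 and 10.83 in WT and 10.38, 11.59, 11.67, 10.35 and 11.09 in *Adck2*+/- liver. The 3 lowest of these 10 values were those of WT 3, *Adck2*+/- 1 and *Adck2*+/- 4, the arrays that stood apart over all genes. The difference was -0.19 (SE 0.29, adjusted p = 0.971 in limma), and it turned to 0.13 without these 3 arrays.

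*C1qa* read 8.75, 9.01, 8.42, 9.16 and 8.44 in WT and 8.33, 9.10, 8.99, 8.54 and 7.95 in *Adck2*+/- liver, a difference of -0.18 (SE 0.23, adjusted p = 0.963 in limma). *Clec4f* read 10.18, 10.13, 10.38, 10.56 and 10.22 in WT and 10.27, 10.47, 10.38, 10.31 and 9.78 in *Adck2*+/- liver. Its difference of -0.05 (SE 0.15, interval -0.37 to 0.27, adjusted p = 0.988 in limma) turned to 0.01 without WT 4 and to 0.06 without *Adck2*+/- 5. Its second probe gave -0.03. For both genes the groups overlapped widely, and the interval for *Clec4f* leaves room for a difference of either sign.

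With each array left out in turn, the liver difference of *Siglec1* ran from -0.79 to -0.66, that of *Timd4* from -0.70 to -0.43 and that of *Marco* from -1.64 to -0.87. That of *Cd163* ran from -0.39 (without WT 5) to -0.17 (without *Adck2*+/- 5), that of *C1qa* from -0.31 (without *Adck2*+/- 2) to -0.018 (without *Adck2*+/- 5) and that of *Vsig4* from -0.35 (without *Adck2*+/- 3) to -0.021 (without *Adck2*+/- 4). These 6 stayed below 0.

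**Figure D2:**
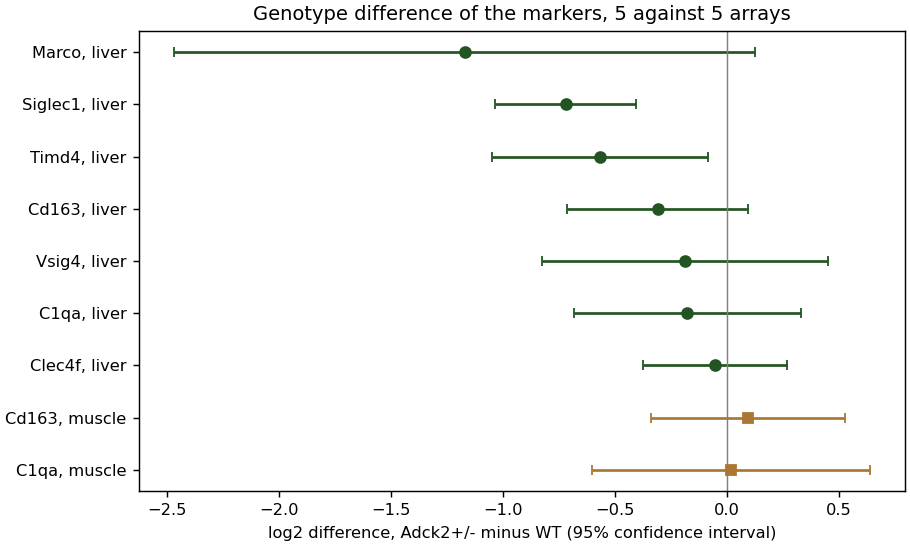
Log2 difference, *Adck2*+/- minus WT (x axis), with its 95% confidence interval from limma, for each kept marker (y axis), 7 in liver (circles) and 2 in muscle (squares). The liver differences run from -1.17 for *Marco* to -0.05 for *Clec4f*, and the intervals of *Siglec1* and *Timd4* do not reach 0.

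Whether the markers rose and fell together was described over the 10 liver arrays after the genotype means had been taken off. Of the 21 pairs of the 7 markers, 16 correlated positively, with a median Pearson r of 0.22 and a range from -0.39 to 0.79. The points share array and normalization, so no p is given. *Timd4* and *C1qa* had the highest r, 0.79, followed by *Marco* and *Vsig4* with 0.77 and *Vsig4* and *C1qa* with 0.71. The lowest was that of *Vsig4* and *Cd163*, -0.39. Without WT 3, *Adck2*+/- 1 and *Adck2*+/- 4 the median over the 7 remaining arrays was 0.72, 20 of 21 pairs were positive, and *Vsig4* and *Cd163* stood at 0.90. On those 3 arrays *Vsig4* was at its lowest, while *Cd163* at 10.01, 9.62 and 9.65 was the highest of WT and the 2 highest of *Adck2*+/-.

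Each marker was also set against the mean standardized value of the other 6. *C1qa* followed it most closely (r = 0.86), then *Timd4* (0.77), *Clec4f* (0.59), *Marco* (0.48) and *Vsig4* (0.45). *Cd163* moved from 0.19 over 10 arrays to 0.99 over 7. *Siglec1*, the marker that separated the genotypes, had an r of 0.02 over 10 arrays and 0.11 over 7, the lowest of the 7 markers on both counts. Its r with single markers depended on the normalization. Under median scaling its r over 10 arrays was 0.42 with *Clec4f* and with *Cd163*, against 0.05 and 0.17 under quantile normalization. With *Timd4* and with *C1qa* it was 0.22, with *Vsig4* 0.15 and with *Marco* -0.18 under median scaling. The median r over all 21 pairs was also higher there, 0.43 against 0.22. The r with the mean of the other 6 was not taken under median scaling. The *Siglec1* probe was dim and was detected on 8 of 10 liver arrays.

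**Figure D3:**
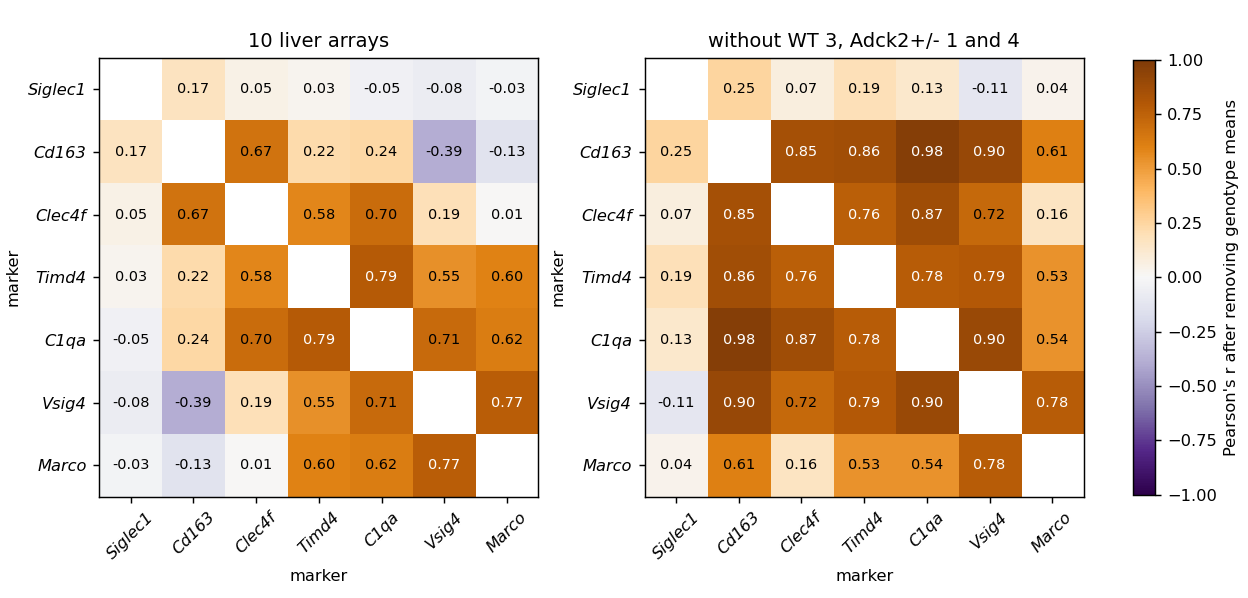
Pearson's r between the 7 markers (rows and columns) over the liver arrays after removing genotype means, for all 10 arrays (left) and for the 7 arrays other than WT 3, *Adck2*+/- 1 and *Adck2*+/- 4 (right). The *Siglec1* row stays between -0.11 and 0.25 on both sides (up to 0.42 over 10 arrays under median scaling, not shown), and the pair of *Vsig4* and *Cd163* goes from -0.39 to 0.90.

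The mean standardized value of the 7 markers per array, with genotype means removed, was highest on *Adck2*+/- 2 (0.96) and lowest on *Adck2*+/- 5 (-1.07) and WT 5 (-0.80). Over 8477 other genes, the 10 with the highest r to it were *Adgre1* (0.93), *Nudt21* (0.93), *P2ry13* (0.92), *Ccdc90b* (0.92), *Prep* (0.92), *Lyz2* (0.90), *Rab3il1* (0.90), *Fpr2* (0.90), *Fcer1g* (0.90) and *Klhl7* (0.90), where 1% of all genes exceeded 0.74. *Adgre1* encodes an adhesion receptor widely used as a macrophage marker, *P2ry13* a receptor for ADP, *Fpr2* a receptor for formylated peptides, *Lyz2* lysozyme and *Fcer1g* the signalling chain of Fc receptors. Only *Adgre1*, *Lyz2* and *Fcer1g* were on the lists of cell-type genes used below. The rest of the 10, among them *Nudt21*, *Ccdc90b*, *Prep*, *Rab3il1* and *Klhl7*, were on none. None of the 10 was called between the genotypes in limma, and 1, *Ccdc90b*, had an unadjusted p under 0.05. *Adgre1* read 10.09 in WT and 9.82 in *Adck2*+/- liver on average, a difference of -0.27 (adjusted p = 0.952 in limma) that came to 0.01 without *Adck2*+/- 5, and *Lyz2* differed by -0.58 (adjusted p = 0.773).

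The markers were set beside further genes of macrophages and of other liver cells, from lists that hold no marker. None of the 137 list genes kept in liver was called by limma, and 10 had an unadjusted p under 0.05, 5 higher and 5 lower, where 7.04% of all genes did in either direction. Of 20 other macrophage genes, 13 lay below 0 with a median difference of -0.09, and of 7 genes of C1q and Fc receptors 6 did with a median of -0.16. *C1qc*, a further C1q chain, differed by -0.22 (0.11 without WT 3, *Adck2*+/- 1 and *Adck2*+/- 4) and *Fcgr1* by -0.22, while *Fcgr4*, an activating Fc receptor, differed by 0.31. Both medians lay nearer to that of all genes (0.01) than did the -0.31 of the markers. The 3 kept of 8 adipocyte genes with a probe all lay below 0, with a median of -0.37. The macrophage genes did not go one way. *Cd84*, a receptor of the SLAM family, was 0.60 higher in *Adck2*+/- liver with no overlap of the groups (unadjusted p = 0.00277, adjusted p = 0.410 in limma), which 1.8% of all genes showed in either direction, whereas *Slc11a1*, a metal transporter of phagosomes chosen after its values were seen, was lower with no overlap (difference -0.34, unadjusted p = 0.0383, adjusted p = 0.687), and *Lyz2* and *Cd14*, the co-receptor for lipopolysaccharide, differed by -0.58 and -0.48.

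Of 15 receptors and regulators of Kupffer cells, 8 lay below 0 (median -0.04). *C6*, a complement component, was 0.56 lower on the log2 scale with no overlap (a difference of -0.56, adjusted p = 0.477 in limma), as 1.11% of all genes were in that direction. *Folr2*, a folate receptor of resident macrophages, differed by -0.36 (-0.027 without the 3 arrays that stood apart). With genotype means removed, the r with the mean standardized value of the markers was -0.51 for *C6* and 0.63 for *Folr2* over the 10 liver arrays. In the pathway of the CSF1 receptor 6 genes were kept, 1 of them below 0, with a median of 0.26. Its growth factor *Csf1* differed by 0.29, the transcription factor *Spi1* by 0.30 and the phosphatase *Inpp5d* by 0.55 (adjusted p from 0.707 to 0.929 in limma). Without WT 2 the difference of *Csf1* was 0.091. *Spi1* and *Inpp5d* were dim, with WT means of 5.25 and 5.57. Neither was kept without the 3 arrays that stood apart, where the median of the list was 0.12. *Spi1* stayed in only 5 of the 10 fits with 1 array left out. Of 8 genes of lipid-associated macrophages 4 lay below 0, with *Fabp5*, a fatty acid binding protein, at -0.99, which turned to 0.16 without the 3 arrays that stood apart. Of 4 genes of recruited monocytes 1 did (median 0.20).

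The kept genes of other leukocytes had means on the other side of 0, and none was called. All 5 kept of 13 neutrophil genes with a probe had a higher mean in *Adck2*+/- liver (median difference 0.51), where 52.8% of all genes did. They ran from *Csf3r* at 0.0016 to *Mmp9* at 0.68, with *S100a9* at 0.53 and *S100a8* at 0.51. All 7 kept of 20 lymphocyte genes also had a higher mean (median 0.45), among them *Ccl5* by 0.76, *Cd79b* by 0.63 and *Cd79a* by 0.52. Without WT 3, *Adck2*+/- 1 and *Adck2*+/- 4 the median was 0.48 for the neutrophil and 0.29 for the lymphocyte genes, and *Cd79b* was at 0.26. *Cd79a* was not kept in that fit. With each gene centred on its mean, the neutrophil genes averaged -0.59, -0.51, -0.24, 0.35 and -0.10 on WT 1 to 5. On *Adck2*+/- 1 to 5 they averaged 0.40, 0.18, 0.25, 0.37 and -0.11. The lymphocyte genes averaged -0.78, -0.74, 0.26, -0.10 and 0.18 in WT and 0.73, -0.16, 0.39, 0.68 and -0.44 in *Adck2*+/- liver. Both lists were lowest on WT 1 and WT 2. Over the alternatives other than single arrays left out, the neutrophil median ran from 0.12 to 0.63 and the lymphocyte median from 0.15 to 0.61. Some of these genes were dim, with WT means of 5.43 for *Mmp9*, 5.42 for *Cd79a* and 5.53 for *Cd3d*. *Cd79a* stayed in only 5 of the 10 fits with 1 array left out. A dim gene can pass the detection filter through the group in which it is higher. The counts of kept genes with a higher mean are therefore a description and not a test. Of 5 red cell genes 4 had a higher mean (median 0.23, and 0.10 without the 3 arrays), with *Hba-a1*, an alpha globin, at 0.41 (adjusted p = 0.565 in limma). Of 13 kept genes of cytokines and chemokines 4 lay below 0, with a median of 0.02. They ran from *Cxcl13* at -0.59 to *Cxcl9* at 0.96 (adjusted p = 0.948 and 0.558 in limma). The summed normalized signal of the 5 neutrophil genes ran from 344 to 683 in WT and from 473 to 668 in *Adck2*+/- liver, and that of the 7 lymphocyte genes from 321 to 713 and from 400 to 1032, so both overlapped. The 7 markers summed to between 4434 and 7296 in WT and between 4057 and 6321 in *Adck2*+/- liver. The 17 genes of sinusoidal endothelium (median -0.03, with *Lyve1* at -0.69), 12 of stellate cells (-0.01), 6 of cholangiocytes (0.00) and 11 of hepatocytes (-0.04) lay near the median of all genes. What part other cells have in the marker differences was not tested.

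**Figure D4:**
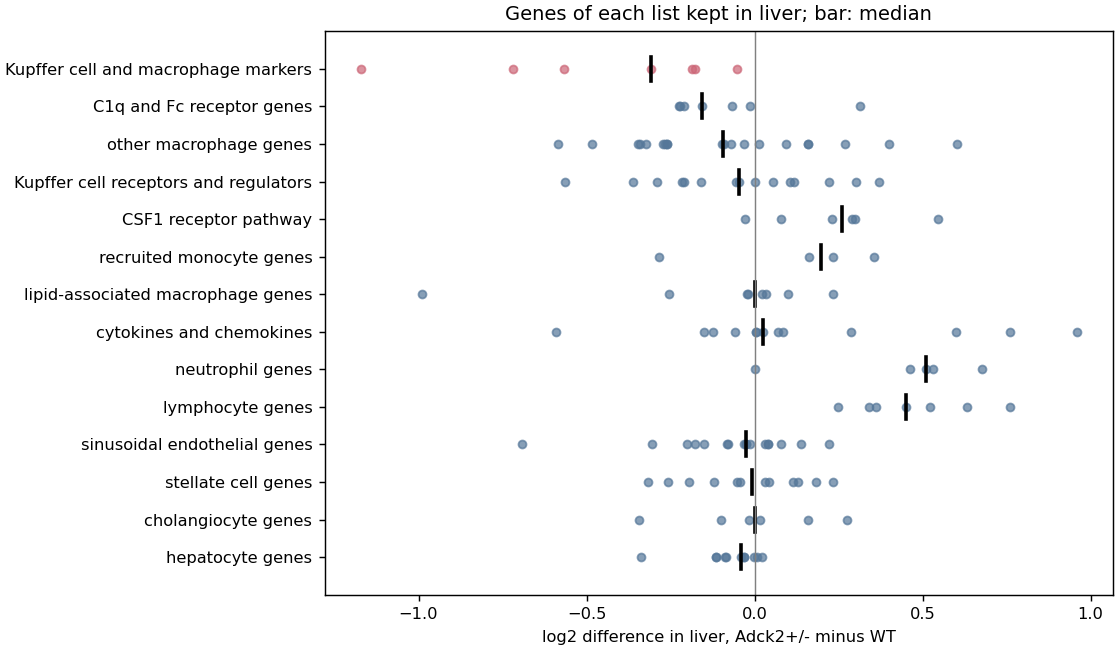
Log2 difference in liver, *Adck2*+/- minus WT (x axis), of each kept gene (points) by list (y axis), with the median of the list as a bar. The markers have a median of -0.31 with all 7 points below 0, and the neutrophil and lymphocyte genes have medians of 0.51 and 0.45.

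In skeletal muscle the 2 kept markers differed by less than the spread between mice and neither was called, where 1.89% of 8424 genes were. *Cd163* read 7.09, 7.08, 7.83, 7.37 and 7.51 in WT and 6.999, 7.51, 7.39, 7.39 and 8.06 in *Adck2*+/- muscle. *C1qa* read 5.80, 5.08, 6.08, 5.86 and 5.95 in WT and 5.28, 5.65, 5.08, 6.49 and 6.36 in *Adck2*+/- muscle. The groups overlapped for both. The 2 highest values of *C1qa* were those of *Adck2*+/- 4 and 5. The 9 kept hepatocyte genes summed to 11187 on *Adck2*+/- 4, against 634 to 5127 in WT muscle, and the 6 kept adipocyte genes to 5933 on *Adck2*+/- 5, against 455 to 2963, and their part in the *C1qa* values was not tested. The differences were 0.10 for *Cd163* (SE 0.20, interval -0.34 to 0.53, adjusted p = 0.816 in limma) and 0.02 for *C1qa* (SE 0.28, interval -0.60 to 0.64, adjusted p = 0.981). Without WT 2 and *Adck2*+/- 5 both turned, to -0.13 and -0.30. Without *Adck2*+/- 5 alone they were -0.05 and -0.13, and for *C1qa* the difference was also below 0 without WT 2 (-0.15) or without *Adck2*+/- 4 (-0.17).

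The genotype effect in muscle minus that in liver was 0.41 for *Cd163* (SE 0.29, adjusted p = 0.551 in limma) and 0.19 for *C1qa* (SE 0.39, adjusted p = 0.876), in a fit that called 0.0409% of 7339 genes. With 1 array left out it ran from 0.25 (without *Adck2*+/- 5 of muscle) to 0.53 for *Cd163* and from 0.0062 (without *Adck2*+/- 4 of muscle) to 0.37 for *C1qa*. An unequal effect in the 2 tissues was therefore not shown for either gene, and the other markers could not be compared in this way because they were not kept in muscle.

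Among the other genes in muscle, *S100a4*, a calcium-binding protein of monocytes and fibroblasts, was lower in *Adck2*+/- mice by limma (log2 difference -0.74, adjusted p = 0.0409) with no overlap of the groups, as were 3.02% of all genes in that direction. It no longer passed without any 1 of 8 of the 10 arrays, all but WT 2 and *Adck2*+/- 5 (adjusted p from 0.0616 to 0.0797 in limma), nor without background correction (-0.26, adjusted p = 0.0731), with no filter (0.0674) or with a replicate block (0.108). Of 16 other macrophage genes kept in muscle 4 lay below 0 (median 0.22), where 52.2% of all genes did. *Cd14* differed by 0.62 (adjusted p = 0.0723 in limma), but it stayed in only 5 of the 10 fits with 1 array left out. The other macrophage lists differed in direction. Below 0 lay 3 of 4 genes of C1q and Fc receptors (median -0.18), 8 of 11 receptors and regulators of Kupffer cells (-0.16) and 4 of 6 recruited monocyte genes (-0.13). So did 6 of 10 genes of lipid-associated macrophages (-0.04) and 2 of 5 of the CSF1 receptor pathway (0.01).

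Between the tissues, the levels of the markers were set side by side. *Siglec1*, *Clec4f*, *Vsig4*, *Marco* and *Timd4* were kept through liver alone, so their levels are a description with no test. *Cd163* and *C1qa*, kept in each tissue by itself, were higher in liver than in muscle in both genotypes by limma with no overlap of the groups. The call was also met by 35.8% of 9841 genes in WT and 38.1% in *Adck2*+/- mice, and the separation by 30.8% and 31%. For a marker detected on every liver array of a genotype but not on every muscle array, the fold is a lower bound. Each muscle array was set to no less than the lowest signal of its detected probes.

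*Vsig4* was detected on 10 of 10 liver arrays and on 1 of 10 muscle arrays, and it was at least 51.3-fold higher in WT liver and at least 43.9-fold higher in *Adck2*+/- liver. *Clec4f* was detected on 10 of 10 and 0 of 10, and was at least 27.5-fold higher in WT and at least 26.5-fold in *Adck2*+/- mice. Its second probe gave at least 3.66-fold in WT, so the bound depended on the probe. *Siglec1*, on 0 of 10 muscle arrays, was at least 1.79-fold higher in WT liver. In *Adck2*+/- liver it was detected on 3 of 5 arrays, so the 1.10-fold found there is not a lower bound.

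*Marco* was detected on 3 and *Timd4* on 4 of 10 muscle arrays. *Marco* was at least 7.85-fold higher in WT liver and at least 3.53-fold higher in *Adck2*+/- liver. *Timd4* was at least 7.11-fold and at least 5.03-fold higher. *C1qa*, detected on 8 of 10 muscle arrays, was at least 6.76-fold higher in WT (adjusted p = 6.62e-09 in limma) and at least 5.83-fold in *Adck2*+/- liver. *Cd163* was 3.98-fold higher in WT liver (adjusted p = 9.51e-09 in limma) and 3.01-fold higher in *Adck2*+/- liver, and it was the only marker detected on all 20 arrays.

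**Figure D5:**
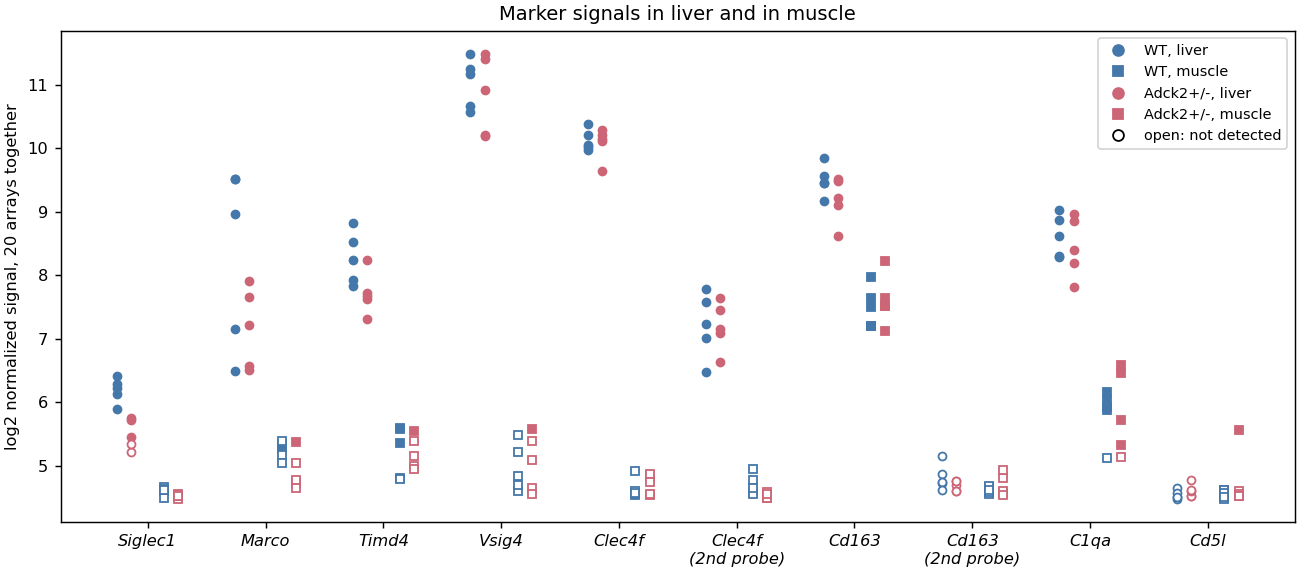
Log2 normalized signal of the 10 marker probes (x axis) with all 20 arrays normalized together (y axis), for liver (circles) and muscle (squares) in WT (blue) and *Adck2*+/- mice (red); open symbols are arrays without detection. *Vsig4* and *Clec4f* lie at background in muscle, *Cd163* is detected in both tissues, and *Cd5l* is at background in liver; levels of different probes are not comparable.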

How the data were processed

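Bead arrays measured RNA of 2 tissues in WT and *Adck2*+/- mice, 20 arrays in all. The deposited intensity values are mean probe signals that the authors left linear and not normalized. A detection p-value stands beside each signal, per the file headers. How the authors treated background before deposit is not given in the sources used here. In the deposited value table, 2165 of 25697 entries hold the signal of another probe, none of them a marker probe, and it was used only as an alternative.

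Groups came from the labels. Of the probes, 23978 had 1 gene symbol in the platform annotation, none had several, and 1719 were unlisted and left out. Symbols were updated through RefSeq (GRCm38.p6). In R 4.3.3 with limma 3.58.1, signals were corrected with neqc from the detection p-values (offset 16), quantile normalized and log2 transformed within a tissue. A probe entered the fit when 5 or more of the 10 arrays had a detection p under 0.05, and the brightest probe stood for its gene. Genotypes were compared by lmFit and eBayes and p-values adjusted by Benjamini-Hochberg over all genes kept. The contrasts between tissues and the interaction used all 20 arrays normalized together, without regard to arrays that may share a mouse. Exact two-sided permutation tests used the 252 splits of 5 against 5. The median signal of an array lay between 125.8 and 219 (liver) or 131.3 and 189.8 (muscle). The steps were tested on simulated data. Alternatives covered background, normalization, filter, probe, model, test and arrays left out. Figures used Python 3.11 with matplotlib 3.10.9.

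The markers and lists were chosen with earlier results of these data known. Named from each list were genes that passed and otherwise those with the largest differences; *Adck2* and *Fgb* were named as checks. Of 247 list genes, 25 had no listed probe.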

Additional observations from a re-analysis of the deposited data

Results flagged for a closer look

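In each of the 40 groups of 5 arrays (10 marker probes in 4 groups), the highest and the lowest value were set against the rest by Dixon's test. It marked 4 groups, where chance marks about 1 in 20. In *Adck2*+/- liver, *Clec4f* was at 9.78 on array 5, against 10.27 to 10.47 on the other 4. In WT muscle, *C1qa* was at 5.08 on array 2, against 5.80 to 6.08. In WT muscle, *Clec4f* was at 4.88 on array 1, against 4.52 to 4.57, and was not detected on any of the 5 arrays. In *Adck2*+/- muscle, *Cd5l* was at 5.50 on array 4, against 4.501 to 4.57, and array 4 was the only array of the series on which it was detected. Of *Cd163* and *C1qa*, the 2 markers in the interaction fit, neither passed it (adjusted p = 0.551 and 0.876 in limma).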

How the results depend on the processing

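The marker differences in liver missed the adjusted threshold under every alternative run, except for *Siglec1* with all 20 arrays fitted together (adjusted p = 0.0111, against 0.197 to 0.829 under the other adjusted limma fits). That fit shares its spread with the muscle arrays, on which *Siglec1* was not detected. *Siglec1*, *Marco*, *Timd4* and *Cd163* stayed below 0 in liver under all alternatives. Under median scaling *Clec4f* was at 0.13, *C1qa* at 0.00618, *Prep* at 0.11, *Fcer1g* at 0.00853 and *Klhl7* at 0.00519 in liver, *C1qa* at -0.031 in muscle, and *C1qa* at -0.037 in the interaction. With array weights *Clec4f* was at 0.038, *Vsig4* at 0.013, *Prep* at 0.00343 and *Fcer1g* at 0.033 in liver, and *C1qa* at -0.078 in muscle. Without WT 3, *Adck2*+/- 1 and *Adck2*+/- 4, *Vsig4* was at 0.13, *C1qc* at 0.11, *Fabp5* at 0.16 and *Lpl*, a lipase, at 0.039. Without WT 2 and *Adck2*+/- 5 in muscle, *Cd163* was at -0.13 and *C1qa* at -0.30. With each array left out in turn, *Clec4f* ran from -0.11 to 0.062, *Adgre1* from -0.42 to 0.013, *Prep* from -0.14 to 0.062 and *Rab3il1* from -0.022 to 0.24 in liver, and *Cd163* from -0.053 to 0.21 and *C1qa* from -0.17 to 0.19 in muscle. The causes of these turns were not tested.

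The count of genes called in liver was 1, and it was 3 with median scaling, 0 with no filter, 0 with every probe tested, 2 with array weights, 9 with all 20 arrays, 0 without the 3 arrays, and 0 to 2 with 1 array left out (2 without *Adck2*+/- 5). The methods' t-test, paired by replicate number, passed 478 genes unadjusted and 0 after Benjamini-Hochberg. In muscle the count was 159, and it was 310 with median scaling, 70 with no filter, 315 with the mean of probes, 637 with every probe, 354 with array weights, 492 with all 20 arrays, 727 without WT 2 and *Adck2*+/- 5, and 14 (without WT 5) to 703 (without *Adck2*+/- 5) with 1 left out. There the methods' t-test passed 1413 unadjusted and 0 adjusted. The interaction called 3 genes, 1 with median scaling, 14 with no filter and 0 to 129 with 1 left out (129 without *Adck2*+/- 5 of muscle). The median r between the markers was 0.43 with median scaling, 0.72 without the 3 arrays and 0.031 (without *Adck2*+/- 5) to 0.46 (without WT 3) with 1 left out. The tissue counts stayed within 1.5 times.

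Whether equal replicate numbers pair mice is not stated. Across genes, same-numbered arrays deviated together (r over 0.1) in 1 of 5 pairs per tissue (liver -0.54 to 0.28, muscle -0.15 to 0.23). With a replicate block limma called 0 genes in liver in place of 1, 0 in muscle and 1 in the interaction, and *Siglec1* had an adjusted p of 0.807. The signal over background limits the dim probes. *Siglec1*, on 8 of 10 liver arrays, left the fit where detection on all 10 was asked for, and *Cd5l* was not measured above background.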

Other observations

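Of the genes just below the 10 most like the markers in liver, *Arntl*, which encodes a transcription factor of the circadian clock, was chosen after its values were seen. Its r with the mean of the 7 markers was 0.87 over 10 arrays and 0.998 over the 7 arrays other than WT 3, *Adck2*+/- 1 and *Adck2*+/- 4. At the other end of the listed genes, *Acta2*, the smooth muscle actin of activated stellate cells and vessels, had an r of -0.84 over 10 arrays and -0.93 over 7. Neither passed the test between the genotypes in limma (adjusted p = 0.976 and 0.964).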
